A study of Mus musculus with 96 samples.

Results

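The neurotrophin system was followed through 6 genes: Bdnf and Ntf3, which encode ligands, Ntrk2, Ntrk3 and Ngfr, which encode their receptors, and Sort1, which encodes the sorting receptor sortilin. A ChIP-seq peak belonged to them if the deposited annotation gave it one of these gene symbols, in any of 6 peak tables. This held for 14 of 22815 peaks, and 6 of 6 genes had at least 1 peak. Ngfr had 5 peaks, Bdnf 3, Ntrk2 and Ntf3 2 each, and Ntrk3 and Sort1 1 each. H3K4me3 gave 7 of them among 12628 peaks in NeuN+ nuclei and 1 among 3270 in NeuN- nuclei. H3K27me3 gave 3 among 4132 in NeuN+ and 3 among 1698 in NeuN- nuclei. Suz12 gave 0 among 775 peaks in NeuN+ and 0 among 312 in NeuN- nuclei, so no peak in the list of consensus Suz12 peaks was annotated to a member.

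BDNF binds the receptor tyrosine kinase TrkB, the product of Ntrk2, and NT-3, the product of Ntf3, binds TrkC, the product of Ntrk3. Their uncleaved precursors bind p75NTR, the product of Ngfr, together with sortilin. In the hippocampus BDNF and TrkB are known for their part in synaptic plasticity and memory. Bdnf is transcribed from many promoters, each with its own first exon spliced to a shared coding exon, and the mature protein is the same from all of them. H3K4me3 marks promoters that are active or poised, whereas H3K27me3 is written by Polycomb repressive complex 2 (PRC2), of which Suz12 is a subunit, and marks silenced genes.

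Hippocampal nuclei came from male C57BL/6N mice, 6 months old, that were wild type (WT), deficient in the DNA glycosylase Mutyh (Mutyh-/-), deficient in the DNA glycosylase Ogg1 (Ogg1-/-), or deficient in both (DKO, bred from these single knockouts). Ogg1 starts the removal of an oxidised form of guanine from DNA, and Mutyh excises adenine wrongly placed opposite it. The sources used here name no cell type to which the deletions are restricted. Tissue of 5 animals of a genotype was pooled before sorting, so the spread between libraries is that between pools, and NeuN- nuclei are mostly glial but mixed. Each genotype had 3 replicates for each antibody and fraction, which gave 12 libraries per table and 72 in all.

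Values are reads in a 401 bp window divided by one factor per library, called normalised reads below. Because each table was scaled separately, levels are not compared between marks or fractions. A library of NeuN+ nuclei had 96023 to 548706 reads in peaks for H3K4me3 and 23794 to 52344 for H3K27me3, and one of NeuN- nuclei 39320 to 120004 and 19132 to 78250. Of 8 neuronal marker genes, 7 had a promoter H3K4me3 peak in NeuN+ and 0 in NeuN- nuclei. Of 16 non-neuronal markers, only Slc1a3 had one in NeuN+ and only Olig1 in NeuN- nuclei, so the H3K4me3 peaks of the NeuN- table hold few of the defining glial genes. Of the targeted genes, Mutyh had no peak, and the Ogg1 promoter peak of H3K4me3 in NeuN+ held 10.7 ± 4.79 (SD, n = 3) normalised reads in WT, 12.6 ± 5.94 in Ogg1-/- and 6.59 ± 7.32 in DKO. The sources used here do not give the deleted part, so this window checks no label.

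Of the 14 windows, 10 were annotated to promoters, 2 to introns of Ngfr and 2 to intergenic sequence nearest to Ngfr. The promoter sequences below are those on which the Bdnf and Ntf3 results turn, with Sort1 as the window richest in CpG, and they lie outside exons of the named gene. They are parts of the windows, except for the downstream Bdnf promoter, where the bases shown end directly before the start and lie outside the window. They were read from GRCm38 and are given 5′ to 3′ on the strand of the gene, with every CpG dinucleotide in capitals.
Bdnf upstream promoter, H3K4me3 in NeuN+, chr2:109677265-109677564, plus strand: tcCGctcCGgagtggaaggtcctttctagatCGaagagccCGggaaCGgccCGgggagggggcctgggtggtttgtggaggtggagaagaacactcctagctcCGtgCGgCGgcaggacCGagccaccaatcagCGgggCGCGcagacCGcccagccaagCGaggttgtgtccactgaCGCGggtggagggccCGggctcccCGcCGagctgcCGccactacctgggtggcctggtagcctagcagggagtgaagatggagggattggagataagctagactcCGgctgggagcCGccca
Bdnf downstream promoter, bases directly before its start, chr2:109693313-109693562, plus strand: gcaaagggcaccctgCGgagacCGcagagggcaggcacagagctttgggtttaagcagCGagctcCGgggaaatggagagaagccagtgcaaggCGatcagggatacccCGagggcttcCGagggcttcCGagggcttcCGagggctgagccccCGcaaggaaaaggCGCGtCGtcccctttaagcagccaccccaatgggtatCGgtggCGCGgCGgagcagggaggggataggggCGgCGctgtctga
Bdnf promoter, H3K27me3 in NeuN-, chr2:109676402-109676701, plus strand: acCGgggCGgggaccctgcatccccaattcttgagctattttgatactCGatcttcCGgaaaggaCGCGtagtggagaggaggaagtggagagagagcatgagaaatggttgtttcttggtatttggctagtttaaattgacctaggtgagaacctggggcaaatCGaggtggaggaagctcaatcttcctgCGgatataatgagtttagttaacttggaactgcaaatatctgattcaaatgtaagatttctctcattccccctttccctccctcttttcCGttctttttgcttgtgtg
Ntf3 promoter, H3K27me3 in NeuN-, chr6:126164961-126165047, minus strand: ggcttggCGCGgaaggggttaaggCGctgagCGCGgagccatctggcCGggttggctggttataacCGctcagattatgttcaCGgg
Sort1 promoter, H3K4me3 in NeuN+, chr3:108284441-108284528, plus strand: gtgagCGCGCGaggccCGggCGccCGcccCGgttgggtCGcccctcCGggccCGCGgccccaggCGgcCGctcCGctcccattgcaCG

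Both H3K4me3 windows of Bdnf, with 28 and 32 CpG in 401 bases, were below the median of 35 over all windows of the table. Its H3K27me3 window held 12 CpG, against a table median of 8. Ntf3 showed the reverse order, with 13 CpG in its H3K4me3 window and 31 in its H3K27me3 window, which lies over an annotated start. The Sort1 window held 60 CpG and was above 95.2% of the H3K4me3 windows of NeuN+ nuclei. Short motifs were searched on both strands, none of which contains another: the E-box CACGTG, the GC box GGGCGG and TGACG, the core of the cAMP response element (CRE). The E-box was in 0 of the 14 windows, and in 5.13% to 7.78% of all windows of a table. A GC box was in 4 of 7 member windows of H3K4me3 in NeuN+ nuclei, against 68.1% of all windows there, and in 3 of 3 of H3K27me3 in NeuN- nuclei, against 27.4%. The CRE core, part of the element bound by CREB, was in the upstream but not in the downstream H3K4me3 window of Bdnf, and in 30.3% of all windows of that table.

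Bdnf carried H3K4me3 in NeuN+ nuclei at 2 separate promoters. The gene spans 52.3 kb with 9 annotated transcription starts, and the centres of the windows lay 2.70 kb and 19.1 kb from the first start. The upstream window (chr2:109677203-109677603) began 171 bp past the annotated start of its transcript, and the downstream window (chr2:109693599-109693999) 36 bp past another. In the downstream window 311 of the 401 bases are annotated as untranslated exon, and in the upstream window 22. The H3K27me3 window of NeuN- nuclei (chr2:109676307-109676707) was centred 1.81 kb from the first start and ended 325 bp before the start of the upstream promoter's transcript. It also overlaps an exon of the antisense gene Gm45346, which the reads cannot tell from Bdnf.

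**Figure D1:**
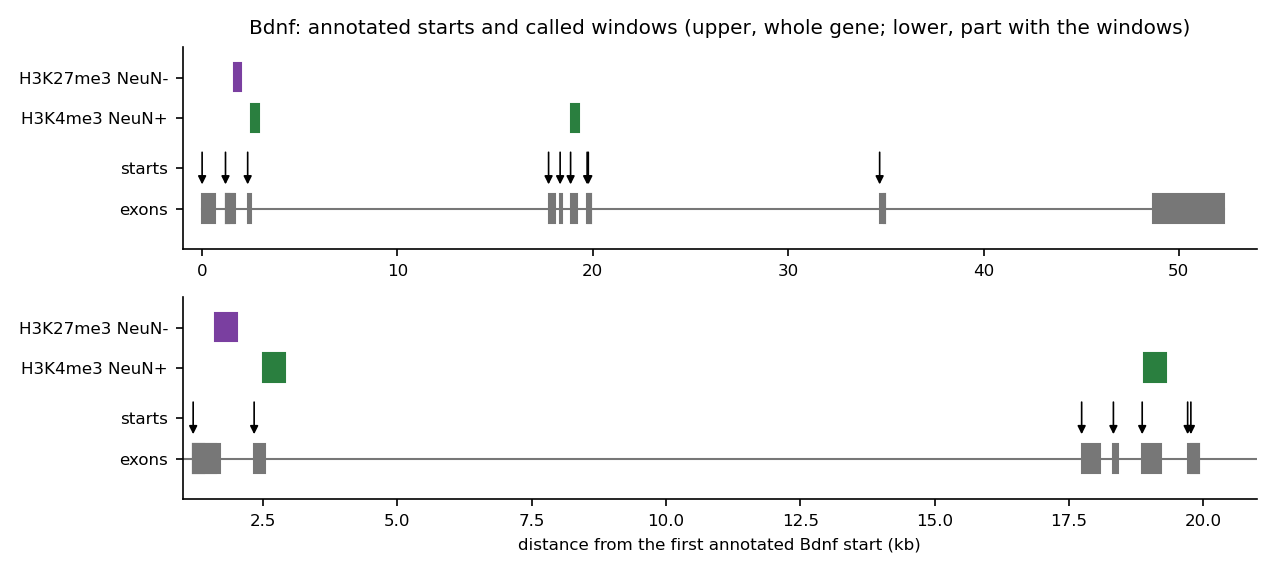
Map of Bdnf, with distance from the first annotated start in kb on the horizontal axis. Arrows mark the 9 annotated starts, boxes the exons, and bars the H3K4me3 windows of NeuN+ nuclei at 2.70 and 19.1 kb and the H3K27me3 window of NeuN- nuclei at 1.81 kb. The lower panel enlarges the part that holds the windows.

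In WT NeuN+ nuclei the members differed in H3K4me3 level. The downstream Bdnf promoter was highest, at 35.2 ± 6.08 normalised reads (SD, n = 3), above 91.9% of the windows of the table. Sort1 followed at 31.5 ± 11.1, then the upstream Bdnf promoter at 20.1 ± 3.84 and Ntrk3 at 19.0 ± 0.834. Ntf3 at 10.9 ± 2.57, Ntrk2 at 9.93 ± 4.18 and Ngfr at 7.68 ± 2.69 were low, each above fewer than 10% of the windows, against a table median of 23.4. Of the neighbours in this order, only Ntrk3 and Ntf3 had WT libraries that did not overlap. All windows are of one width, so these levels are per window and need no correction for length. In bulk nuclei, a mark on fewer nuclei and less of the mark per nucleus cannot be told apart.

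Each knockout was then compared with WT by limma on log2(value + 1). On this scale the pseudocount shrinks changes of low windows, but libraries with 0 reads weigh heavily. The sign can then be opposite to that of the linear means. A window was called a differentially enriched region (DER) where its log2 fold change was beyond 0.5 in either direction and its unadjusted p was below 0.05. No member was a DER in Mutyh-/-, and the H3K27me3 window of Bdnf in NeuN- nuclei was the only member DER in Ogg1-/- and in DKO, that is 0, 1 and 1 of 14 windows. By the same rule 0.911%, 0.966% and 1.46% of all H3K4me3 windows of NeuN+ nuclei were DERs in Mutyh-/-, Ogg1-/- and DKO, and 2.94%, 3.36% and 2.29% of those of NeuN- nuclei. For H3K27me3 the shares were 3.78%, 3.82% and 3.36% in NeuN+ and 2.00%, 4.18% and 2.30% in NeuN- nuclei. After Benjamini-Hochberg adjustment over a table, limma called 0 of the 14 windows in any knockout, and the smallest adjusted p was 0.963. Over all alternatives, edgeR and DESeq2 on whole reads included, the smallest was 0.470. Adjusted calls over the whole tables were also rare, at 0%, 0% and 0% for H3K4me3 and 0.121%, 0.0484% and 0% for H3K27me3 in NeuN+, and 0.122%, 0.0612% and 0.0306% for H3K4me3 and 0%, 0% and 0% for H3K27me3 in NeuN- nuclei. The median log2 fold change of the 14 windows was 0.18 in Mutyh-/-, 0.04 in Ogg1-/- and 0.21 in DKO. The medians over all windows, in the same order of knockouts, were -0.07, 0.08 and -0.02 for H3K4me3 in NeuN+, 0.22, 0.25 and 0.05 for H3K4me3 in NeuN-, -0.21, -0.11 and -0.01 for H3K27me3 in NeuN+ and 0.29, 0.58 and 0.41 for H3K27me3 in NeuN- nuclei. The 3 comparisons share the WT libraries.

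H3K4me3 at the promoters of Bdnf passed the test in no knockout. At the upstream promoter, H3K4me3 in NeuN+ nuclei was 24.4, 18.5 and 17.2 normalised reads in the WT libraries, 25.1, 30.3 and 32.4 in Mutyh-/-, 27.4, 20.5 and 45.4 in Ogg1-/- and 38.3, 26.5 and 25.02 in DKO. All Mutyh-/- and all DKO libraries were above all WT libraries, whereas Ogg1-/- replicate 2 lay within the WT range. Among all windows of the table, the libraries of a knockout were all above WT in 2.16% for Mutyh-/-, 2.83% for Ogg1-/- and 3.10% for DKO. Means were 20.1 ± 3.84 (SD, n = 3) in WT, 29.3 ± 3.79 in Mutyh-/-, 31.1 ± 12.8 in Ogg1-/- and 30.0 ± 7.29 in DKO. The log2 fold changes were 0.53, 0.55 and 0.55, each with an SE of 0.40 and unadjusted p of 0.197, 0.182 and 0.184, so none passed the test. For DKO the 95% interval ran from -0.27 to 1.36. Single libraries weighed on these values, since that for Ogg1-/- was 0.25 without Ogg1-/- replicate 3 and that for DKO 0.36 without DKO replicate 1.

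At the downstream promoter the log2 values had the opposite sign. It held 33.4, 30.2 and 42.0 normalised reads in WT, 13.1, 40.4 and 36.8 in Mutyh-/-, 28.6, 18.5 and 28.5 in Ogg1-/- and 11.3, 21.7 and 28.0 in DKO. All Ogg1-/- and all DKO libraries were below all WT libraries, and Mutyh-/- was low in replicate 1 alone. Over the table, the libraries of a knockout were all below WT in 3.61% of windows for Mutyh-/-, 0.855% for Ogg1-/- and 1.92% for DKO. Means were 35.2 ± 6.08 (SD, n = 3) in WT, 30.1 ± 14.9 in Mutyh-/-, 25.2 ± 5.80 in Ogg1-/- and 20.3 ± 8.47 in DKO. The log2 fold changes were -0.36, -0.48 and -0.84, each with an SE of 0.45 and unadjusted p of 0.429, 0.286 and 0.0686. The interval for DKO ran from -1.74 to 0.07. With TMM factors the DKO value was -0.84 at an unadjusted p of 0.0149, which meets the DER rule, and over all alternatives its adjusted p stayed between 0.835 and 1. Without DKO replicate 1, which had 5 reads here, it was -0.48 at an unadjusted p of 0.295. The Ogg1-/- value was -0.28 without Ogg1-/- replicate 2. With edgeR under TMM factors the Ogg1-/- value was -0.62 at an unadjusted p of 0.0421 (adjusted p 0.999). This met the DER rule, the only one of 24 alternatives for Ogg1-/- that did. In Mutyh-/- the sign rested on replicate 1, since without that library the log2 fold change was 0.14, and without WT replicate 3 it was -0.23.

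**Figure D2:**
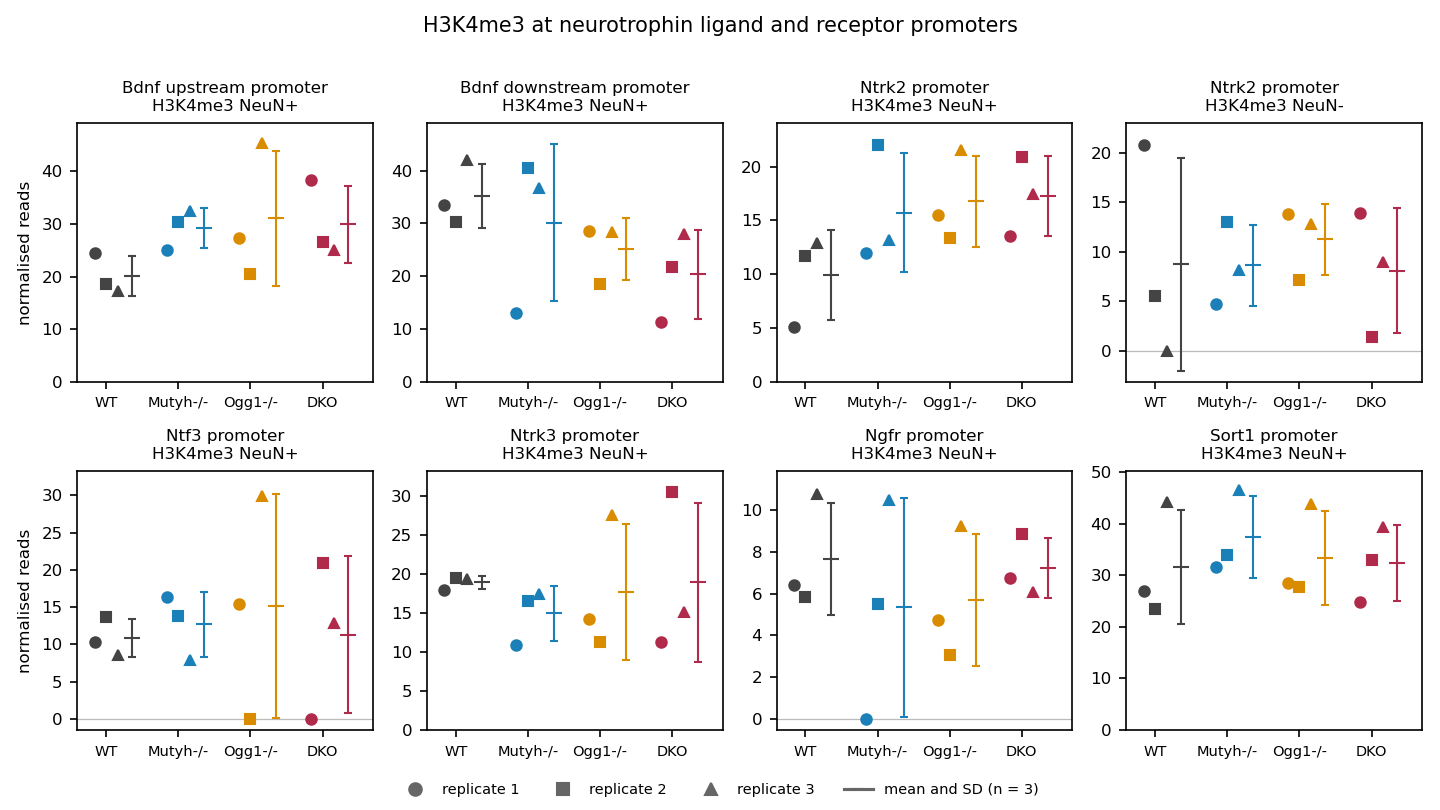
H3K4me3 at the 8 member windows, in normalised reads on the vertical axis, by genotype. Each point is 1 library, with circles, squares and triangles for replicates 1, 2 and 3, and bars give the mean ± SD (n = 3). At the upstream Bdnf promoter the DKO libraries lie between 25.02 and 38.3 and at the downstream promoter between 11.3 and 28.0, where WT lies between 30.2 and 42.0.

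Both promoters were counted in the same libraries, so that they could be compared within each. This comparison was added after the values had been seen. The log2 difference, downstream minus upstream, was 0.44, 0.68 and 1.24 in WT, -0.89, 0.40 and 0.18 in Mutyh-/-, 0.06, -0.14 and -0.65 in Ogg1-/- and -1.68, -0.28 and 0.16 in DKO. All 9 knockout libraries thus lay below all 3 WT libraries, which held in one direction or the other for 4 of the 600 pairs of promoter windows of one gene (0.667%). Means were 0.78 ± 0.41 (SD, n = 3) in WT, -0.10 ± 0.69 in Mutyh-/-, -0.25 ± 0.37 in Ogg1-/- and -0.60 ± 0.96 in DKO.

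Fitted with limma over the 600 pairs, from 540 genes, the ratio of the Bdnf promoters differed from WT by -0.89 in Mutyh-/-, -1.03 in Ogg1-/- and -1.38 in DKO on the log2 scale (SE 0.48). Unadjusted p was 0.0744, 0.0402 and 0.00759, and the 95% interval for DKO ran from -2.36 to -0.40. The factor of a library cancels in this ratio apart from the pseudocount, and with TMM factors the values were -0.89, -1.03 and -1.39. Ogg1-/- and DKO met the rule for a call, as did 4.50% and 4.83% of all pairs, and Mutyh-/- did not, where 3.83% of pairs did. None passed the adjustment, with adjusted p of 0.993, 0.921 and 0.776. The exact permutation test gave p = 0.1 for each knockout, two-sided, which is the smallest that 3 libraries against 3 allow.

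In reads, the downstream window held 26 of 45, 31 of 50 and 39 of 55 of the reads of both windows in WT, or 57.8%, 62.0% and 70.9%. In DKO these shares were 22.7%, 45.0% and 52.9%, and DKO replicate 1 had 5 and 17 reads in the windows, an exact 95% binomial interval of 7.82% to 45.4% that covers counting error alone. Without this library the difference for DKO was -0.84 at an unadjusted p of 0.0766. For Ogg1-/- it ranged from -1.20 to -0.80 when single libraries were left out, and the call was lost without WT replicate 2 or 3 or Ogg1-/- replicate 2 or 3. For Mutyh-/- the difference was -0.49 without Mutyh-/- replicate 1, and the call was gained, at unadjusted p of 0.0472 and 0.0388, without Mutyh-/- replicate 2 or DKO replicate 1.

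**Figure D3:**
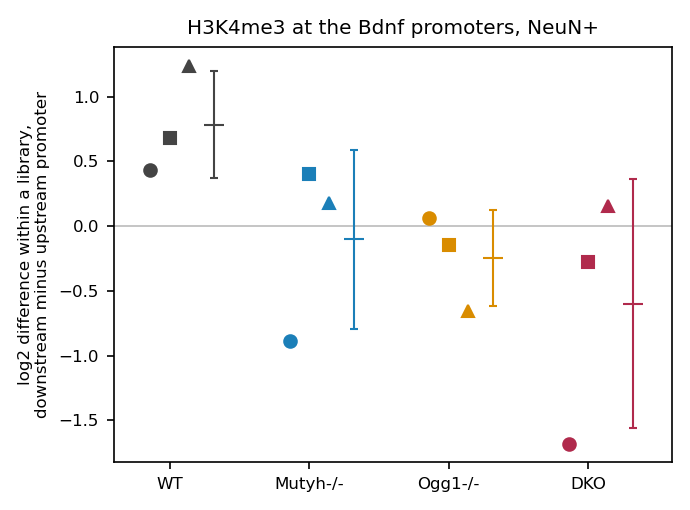
Difference of the H3K4me3 windows of Bdnf within each library of NeuN+ nuclei, downstream minus upstream, on a log2 scale. Points are libraries, marked by replicate, and bars the mean ± SD (n = 3). The 3 WT libraries lie between 0.44 and 1.24, and the 9 knockout libraries at 0.40 or below.

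H3K27me3 at Bdnf was recorded in NeuN- nuclei, and it was called higher in Ogg1-/- and DKO than in WT. The window held 3.97, 0 and 0 normalised reads in WT, 13.5, 1.06 and 0 in Mutyh-/-, 8.77, 4.90 and 9.54 in Ogg1-/- and 9.54, 2.77 and 13.6 in DKO. All Ogg1-/- libraries were above all WT libraries, whereas DKO replicate 2 and Mutyh-/- replicates 2 and 3 lay within the WT range. In 9.01% of the windows of this table all Ogg1-/- libraries were above WT. These values rest on few reads, with 3, 0 and 0 in WT, 14, 1 and 0 in Mutyh-/-, 10, 6 and 8 in Ogg1-/- and 11, 3 and 12 in DKO. Windows were kept if found in at least 2 of 3 replicates, and WT replicates 2 and 3 held 0 reads here. The window thus probably entered the list through knockout libraries, which by itself favours values above WT, and the comparison is not independent of that choice. How much this adds was not tested. Means were 1.32 ± 2.29 (SD, n = 3) in WT, 4.84 ± 7.48 in Mutyh-/-, 7.74 ± 2.48 in Ogg1-/- and 8.65 ± 5.48 in DKO. The log2 fold changes were 0.86 in Mutyh-/-, 2.31 in Ogg1-/- and 2.29 in DKO, each with an SE of 1.15. Unadjusted p was 0.456, 0.0451 and 0.0471, so that Ogg1-/- and DKO met the DER rule, and the adjusted p was 0.998, 0.963 and 1. As summed reads over the library factors, the ratio to WT was 4.96 in Mutyh-/- (95% counting interval 1.40 to 26.7), 7.06 in Ogg1-/- (2.15 to 36.6) and 7.87 in DKO (2.41 to 40.6). These intervals cover counting error alone. Of the 15 reads in Mutyh-/-, 14 came from replicate 1, and without that library the log2 fold change was -0.25.

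The whole H3K27me3 table of NeuN- nuclei was shifted in the same direction. Relative to the median log2 fold change of the table, the Bdnf values were 0.57 in Mutyh-/-, 1.73 in Ogg1-/- and 1.88 in DKO. A single window, chr2:98666960-98667360, took 53.5%, 68.7% and 63.0% of the reads in WT, 32.4%, 64.9% and 66.2% in Mutyh-/-, 40.1%, 73.0% and 46.3% in Ogg1-/- and 20.6%, 71.7% and 57.0% in DKO. The 6 libraries with the lowest share had 3 to 14 reads at Bdnf and the other 6 had 0 to 6, and the part of this share in the result was not tested. With libraries scaled to the reads outside that window, an alternative added after the data had been seen, the values were 0.65, 1.99 and 2.05 and the unadjusted p for Ogg1-/- and DKO was 0.0796 and 0.0717. The calls for both were also lost on whole reads, although the values were of similar size, at 2.23 and 2.47 with edgeR under TMM, 2.56 and 2.71 with edgeR under the authors' factors and 2.22 and 2.38 with DESeq2, with unadjusted p between 0.0624 and 0.114. Without WT replicate 2 or without WT replicate 3 the calls were lost as well, and the values were 1.93 and 1.90.

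**Figure D4:**
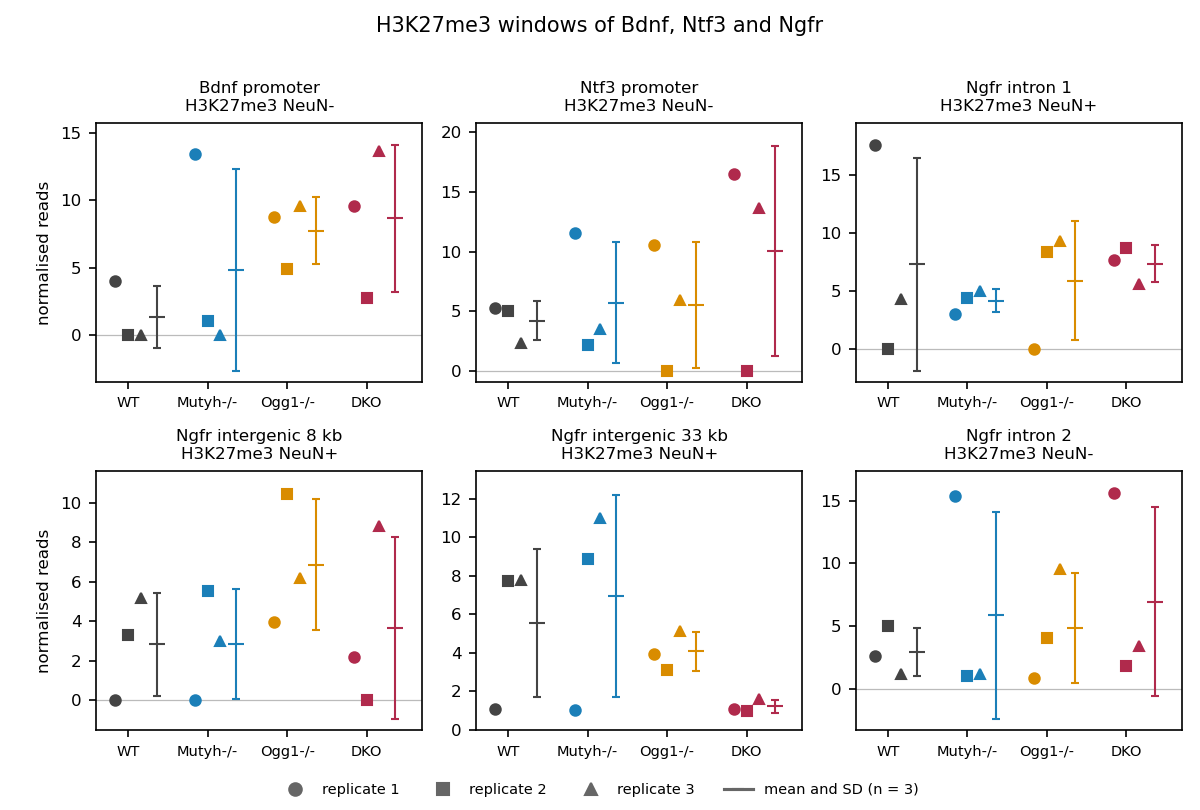
H3K27me3 at the 6 member windows, in normalised reads on the vertical axis, by genotype, with the fraction named in each panel. Each point is 1 library, marked by replicate, and bars give the mean ± SD (n = 3). At Bdnf the WT libraries lie between 0 and 3.97 and the Ogg1-/- libraries between 4.90 and 9.54.

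Ntf3, the gene of NT-3, also had H3K4me3 in NeuN+ and H3K27me3 in NeuN- nuclei, and no knockout moved either beyond its spread. Its H3K4me3 window (chr6:126163575-126163975) lay in an intron, 985 bp past an annotated start, of 3 in the gene. It held 10.3, 13.7 and 8.62 normalised reads in WT, 16.3, 13.8 and 7.88 in Mutyh-/-, 15.5, 0 and 30.0 in Ogg1-/- and 0, 20.9 and 12.9 in DKO. It was thus empty in 1 Ogg1-/- and 1 DKO library, and the highest library was another Ogg1-/- replicate. Its log2 fold changes were 0.17, -0.55 and -0.80 (SE 0.99), with unadjusted p of 0.862, 0.584 and 0.426. On the linear scale the Ogg1-/- and DKO means, 15.2 and 11.3, were above the WT mean of 10.9, opposite in sign to the log2 values. The H3K27me3 window (chr6:126164647-126165047) covered that same start and held 5.29, 4.98 and 2.31 in WT, 11.5, 2.11 and 3.47 in Mutyh-/-, 10.5, 0 and 5.96 in Ogg1-/- and 16.5, 0 and 13.6 in DKO. Replicate 1 was the highest library in each genotype, and the log2 fold changes were 0.16, -0.21 and 0.35 (SE 1.14). The Ogg1-/- mean of 5.49 was above the WT mean of 4.19, again opposite in sign to the log2 value. Relative to the shift of the table they were -0.13, -0.79 and -0.07, so that the sign for Mutyh-/- and DKO depends on it.

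Ntrk2, the gene of TrkB, was the only member with a listed H3K4me3 window in both fractions. NeuN- nuclei had 3270 listed H3K4me3 windows against 12628 in NeuN+, so a missing window does not show absence of the mark. In NeuN+ nuclei the Ntrk2 window (chr13:58807599-58807999) lay over an annotated start, of 8 in the gene. It held 5.15, 11.7 and 12.9 normalised reads in WT, 12.0, 22.1 and 13.1 in Mutyh-/-, 15.5, 13.3 and 21.5 in Ogg1-/- and 13.5, 20.9 and 17.4 in DKO. All Ogg1-/- and all DKO libraries were above all WT libraries, which held for 2.83% and 3.10% of all H3K4me3 windows of NeuN+ nuclei. With log2 fold changes of 0.65, 0.76 and 0.81 (SE 0.55) and unadjusted p of 0.245, 0.176 and 0.151, none passed the test. Without WT replicate 1, the lowest library, the values were 0.28, 0.39 and 0.44. In NeuN- nuclei the window (chr13:58807585-58807985) held 20.7, 5.52 and 0 in WT, 4.76, 13.0 and 8.13 in Mutyh-/-, 13.9, 7.18 and 12.8 in Ogg1-/- and 13.9, 1.43 and 8.94 in DKO. The WT libraries here spanned the range of all other libraries. The log2 fold changes were 0.79, 1.19 and 0.45 (SE 0.95), with unadjusted p of 0.410, 0.217 and 0.639. On the linear scale the means of Mutyh-/- (8.62) and DKO (8.10) were below that of WT (8.75), opposite in sign to the log2 values. The values rested on single WT libraries. Without WT replicate 3, which had 0 reads, they were -0.40, -0.00305 and -0.74, whereas without WT replicate 1 they were 1.82, 2.22 and 1.48, with an unadjusted p of 0.0463 for Ogg1-/-. Under edgeR with TMM factors they were -0.000662, 0.30 and -0.14. Relative to the table the values were 0.57, 0.94 and 0.39.

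Whether the response of Ntrk2 differed between the fractions was tested in one limma fit over the 3000 H3K4me3 windows that both tables share. The effect in NeuN+ minus that in NeuN- was -0.14 for Mutyh-/-, -0.42 for Ogg1-/- and 0.36 for DKO on the log2 scale (SE 1.16), with unadjusted p of 0.906, 0.716 and 0.757. The intervals were wide, for DKO from -1.99 to 2.71. By the same rule 2.30%, 1.80% and 1.80% of the shared windows differed.

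Ntrk3, the gene of TrkC, had an H3K4me3 window in NeuN+ nuclei (chr7:78577773-78578173) over an annotated start, of 13 in the gene. The gene spans chr7:78175959-78738010 on the minus strand, so the window lies inside it and not at its 5′ end. It held 18.01, 19.5 and 19.4 normalised reads in WT, 10.9, 16.5 and 17.5 in Mutyh-/-, 14.3, 11.3 and 27.7 in Ogg1-/- and 11.3, 30.6 and 15.2 in DKO. The WT libraries lay close together, all Mutyh-/- libraries were below them, and the Ogg1-/- and DKO libraries lay on both sides. All Mutyh-/- libraries were below WT in 3.61% of all windows of the table. This gave log2 fold changes of -0.35, -0.19 and -0.11 (SE 0.52) and unadjusted p of 0.506, 0.719 and 0.826. Without Mutyh-/- replicate 1 the first of these was -0.15.

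Ngfr, the gene of p75NTR, had the lowest H3K4me3 of the members and most of their H3K27me3 windows. Its H3K4me3 window (chr11:95586991-95587391), 344 bp past the start and within an intron, held 6.43, 5.85 and 10.8 normalised reads in WT, 0, 5.51 and 10.5 in Mutyh-/-, 4.76, 3.08 and 9.23 in Ogg1-/- and 6.77, 8.85 and 6.06 in DKO. The groups overlapped, and the log2 fold changes were -0.9997, -0.44 and -0.05 (SE 0.90), with unadjusted p of 0.276, 0.630 and 0.956. Of its 3 H3K27me3 windows in NeuN+ nuclei, 1 lay in the first intron (chr11:95581451-95581851) and 2 in intergenic sequence, 8006 bp (chr11:95595741-95596141) and 33053 bp (chr11:95620788-95621188) upstream. At the most distant, the libraries held 1.10, 7.75 and 7.76 in WT, 1.01, 8.85 and 11.0 in Mutyh-/-, 3.96, 3.14 and 5.14 in Ogg1-/- and 1.09, 0.969 and 1.60 in DKO. All DKO libraries were low, each with 1 or 2 reads, but WT replicate 1 was as low, and the log2 fold change was -1.30 (SE 1.02, unadjusted p = 0.203). The other H3K27me3 windows of Ngfr, including that of the second intron in NeuN- nuclei (chr11:95579440-95579840), held between 0 and 17.5 normalised reads, with log2 fold changes between -0.01 and 1.31 and overlapping groups.

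Sort1 was among the highest of the members, and its groups overlapped in each comparison. Its H3K4me3 window (chr3:108284128-108284528), 37 bp past an annotated start, also overlaps an exon of the antisense gene Gm12523, and reads of these cannot be told apart. It held 27.01, 23.4 and 44.2 normalised reads in WT, 31.6, 34.0 and 46.4 in Mutyh-/-, 28.6, 27.7 and 43.8 in Ogg1-/- and 24.8, 33.0 and 39.4 in DKO. Replicate 3 was the highest library in each genotype. Knockouts differed from WT by log2 fold changes of 0.27, 0.10 and 0.07 (SE 0.38), and for DKO the 95% interval ran from -0.71 to 0.85.

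Non-additive effects, DKO minus both single knockouts plus WT, were called for 0 of the 14 windows by limma. The smallest unadjusted p was 0.261, for Ntrk2 in NeuN- nuclei. The rule called 0.839% and 3.03% of all H3K4me3 windows in NeuN+ and NeuN- nuclei, and 3.92% and 2.47% of all H3K27me3 windows.

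**Figure D5:**
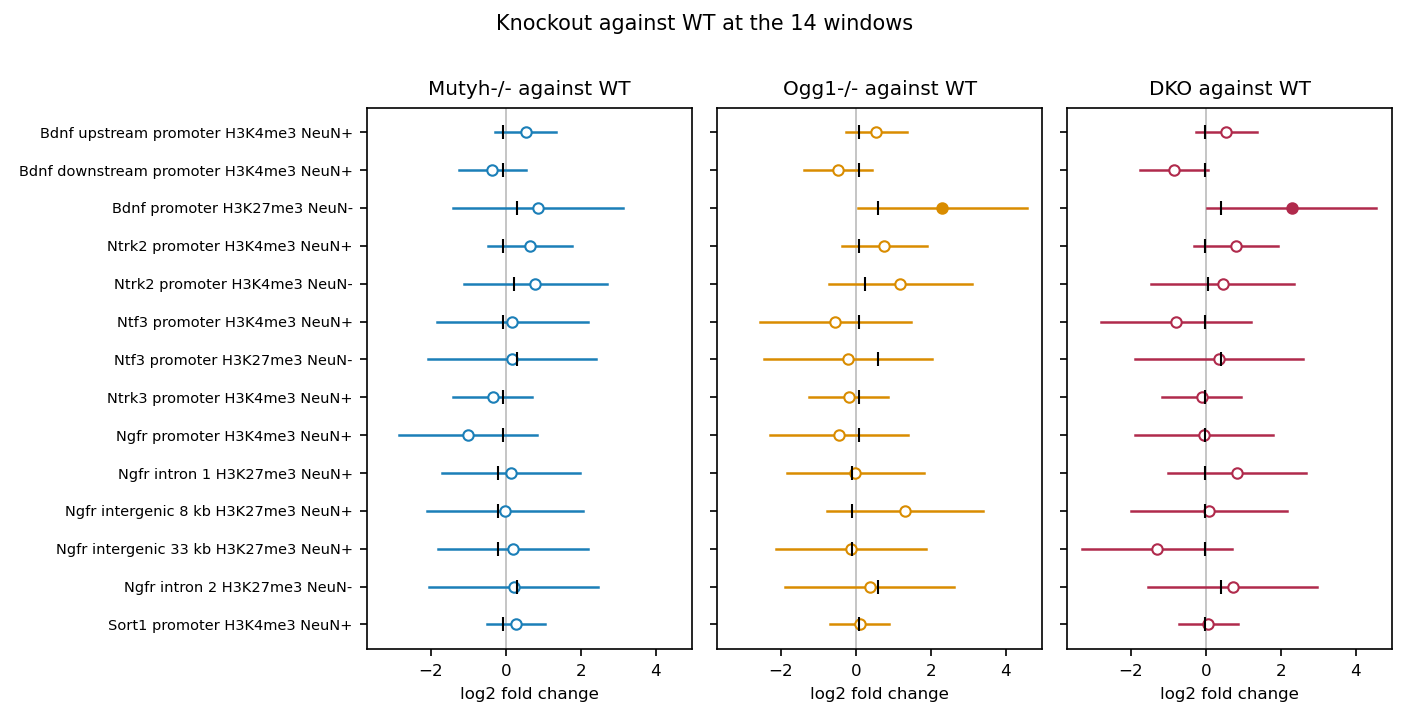
Log2 fold change against WT of each member window in Mutyh-/-, Ogg1-/- and DKO, with 95% intervals as lines and the median of all windows of the table as a black tick. Filled points met the DER rule, which held only for the H3K27me3 window of Bdnf in NeuN- nuclei, at 2.31 in Ogg1-/- and 2.29 in DKO.

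The wider pathway was followed through 86 listed genes of other ligands and receptors, p75NTR partners, proteases of the precursors, adaptors and the Ras-MAPK, PI3K-AKT and phospholipase C branches. In all, 78 had a peak and together they had 130. H3K4me3 in NeuN+ nuclei was recorded at 17 of 17 adaptors, 18 of 18 Ras-MAPK genes and 11 of 11 PI3K-AKT genes, but at 0 of 3 ligand entries. The ligand gene Ntf5 had an H3K27me3 window in NeuN- nuclei instead. The list holds older and newer symbols of some genes, such as Ntf4 and Ntf5, so that a gene counted as without a peak can be present under its other name.

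Of the 130 pathway windows, 1 was a DER in Mutyh-/-, 3 in Ogg1-/- and 2 in DKO, and 0 passed the adjustment (smallest adjusted p 0.916). These were 0.769%, 2.31% and 1.54% of the list, against 1.99%, 2.30% and 2.10% of all windows of the 6 tables. The list also drew on the Suz12 table of NeuN+ nuclei, where DERs made up 5.16%, 3.74% and 2.58% of all windows in Mutyh-/-, Ogg1-/- and DKO. Mapk3, which encodes the kinase ERK1, was called in each knockout at its H3K4me3 window in NeuN+ nuclei (chr7:126759781-126760181). It held 3.86, 0.976 and 12.9 normalised reads in WT, 16.3, 19.3 and 16.6 in Mutyh-/-, 10.7, 10.3 and 24.6 in Ogg1-/- and 11.3, 24.9 and 23.5 in DKO. The Mutyh-/- libraries were above all WT libraries, as in 2.16% of all H3K4me3 windows of NeuN+ nuclei, whereas those of Ogg1-/- and DKO overlapped WT replicate 3. Its log2 fold changes were 1.85, 1.55 and 1.96 (SE 0.66), with unadjusted p of 0.0086, 0.0249 and 0.00566 against the same WT libraries. Mmp9, a protease that cleaves proneurotrophins, was called higher for H3K27me3 in NeuN- nuclei of Ogg1-/- (log2 fold change 2.29, limma unadjusted p = 0.0477, adjusted p = 0.963). That window held 0, 2.49 and 0 normalised reads in WT and 7.01, 13.9 and 2.38 in Ogg1-/-, so the groups overlapped. Windows were kept if found in at least 2 of 3 replicates, and WT replicates 1 and 3 held 0 reads here. This Mmp9 window thus probably entered the list through knockout libraries, which by itself favours values above WT. How much this adds was not tested. Over all windows there the median log2 fold change was 0.58, and another promoter window of Mmp9 (chr2:164951729-164952129) was not a DER. Pik3cb, a catalytic subunit of PI3-kinase, was called higher for H3K4me3 in NeuN+ nuclei of Ogg1-/- (0.79, limma unadjusted p = 0.0487). It held 23.2, 16.6 and 24.8 normalised reads in WT and 38.1, 26.7 and 51.5 in Ogg1-/-. With TMM factors the DERs of the list were 7, 7 and 8, of which 4, 3 and 4 were higher in the knockout. These were 5.38%, 5.38% and 6.15% of the list, against 4.22%, 4.26% and 4.94% of all windows of the 6 tables with the same factors.

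Across the 12141 genes with a promoter peak, the combination of H3K4me3 in NeuN+ and H3K27me3 in NeuN- nuclei that Bdnf and Ntf3 share was found for 243 genes besides Bdnf. Ranked by Euclidean distance of WT promoter levels on the log2 scale over the 6 tables, the closest to Bdnf were Trnp1 (0.0666), Adamts8 (0.221) and Trpc4 (0.229). Only the 2 tables with a promoter window of these genes add to the distance. The H3K27me3 level of Bdnf in it rests on WT libraries with 3, 0 and 0 reads, so the order is uncertain. Ntrk2 shared H3K4me3 in both fractions with 2776 other genes, and Ntrk3, Ngfr and Sort1 had promoter windows of H3K4me3 in NeuN+ nuclei alone, as did 7683 other genes.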

How the data were processed

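H3K4me3, H3K27me3 and Suz12 were profiled by ChIP-seq in sorted hippocampal nuclei. The authors mapped the reads to GRCm38 (Bowtie2 2.3.5.1), called enriched regions with epic2 (FDR 0.05), kept those found in at least 2 of 3 replicates, counted with DiffBind 3.10.1 and annotated with ChIPseeker 1.36. Handling of duplicates and input is not given in the sources used here, and the 24 input libraries have no column. The deposited values are signal, reads per window divided by a library factor. In each library 100% of values were whole multiples of one step (tolerance 0.001 reads), so whole reads were recovered for edgeR 4.0.16 and DESeq2 1.42.0.

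Groups followed the labels, and antibody and fraction the table. Since the signal was not raw counts, limma 3.58.1 (trend, log2(value + 1), 12 libraries per table, genotype as the only term, R 4.3.3) was the test, adjusted over all windows of a table. Prior degrees of freedom were 24.9 and 58.3 for H3K4me3 in NeuN+ and NeuN- and infinite for H3K27me3 and Suz12, where the spread of a single window does not enter its p. limma was tested on simulated data beforehand. By correlation, replicate numbers did not pair libraries: same-numbered libraries were over 0.1 in every pair in only 1 comparison (Suz12 NeuN+, Mutyh-/-), which holds no member. Library make-up did follow the number for H3K27me3 in NeuN- nuclei. There the top window took 20.6% to 53.5% of reads in replicate 1 and 64.9% to 73.0% in replicate 2, over the 4 genotypes.

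The members and lists were chosen with earlier results of these data known. Named were all member windows, up to 3 DERs of the pathway list with the smallest p per knockout, and the 3 genes closest to Bdnf. Some genes of the pathway list are counted but not reported here by name. Alternatives covered the pseudocount, low windows, scaling, empirical Bayes, count tests, the libraries fitted, a replicate block and leaving out each library.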

Additional observations from a re-analysis of the deposited data

How the results depend on the processing

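No alternative gave a member an adjusted p under 0.05 (smallest 0.470 over 999 values of 42 window and knockout combinations), and 84 of these values changed sign, none with a call on either side. The count of member DERs in Ogg1-/- was 0 instead of 1 with a pseudocount of 5, loess scaling, edgeR with the authors' factors, DESeq2, only the 6 libraries compared, or scaling outside the top window (added after seeing the data). In DKO it was 0 with a pseudocount of 5, robust empirical Bayes, edgeR with the authors' factors or 6 libraries, and 2 with TMM or loess scaling, where the downstream Bdnf promoter was added. With edgeR under TMM and with DESeq2 it stayed at 1, which was then the downstream promoter. In Ogg1-/- the downstream promoter was likewise the member DER with edgeR under TMM, in place of the H3K27me3 window.

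Leaving out single libraries gave 0 to 0 member DERs in Mutyh-/-, 0 to 2 in Ogg1-/- and 0 to 2 in DKO, and 0 for non-additive and fraction effects. The pathway list gave 1 to 3, 1 to 4 and 1 to 6. The call at Bdnf H3K27me3 was lost in both Ogg1-/- and DKO without WT replicate 2, WT replicate 3, Ogg1-/- replicate 1, Ogg1-/- replicate 3 or DKO replicate 3, and in DKO also without DKO replicate 1. The count of 2 in Ogg1-/- came without WT replicate 1 of H3K4me3 in NeuN- nuclei, and in DKO without Mutyh-/- replicate 1 or DKO replicate 3 of H3K4me3 in NeuN+ nuclei. The difference of the Bdnf promoters ranged from -1.14 to -0.49 in Mutyh-/-, from -1.20 to -0.80 in Ogg1-/- and from -1.76 to -0.84 in DKO.

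For the pathway list in Mutyh-/-, 1 DER became 0 without low windows, 2 with edgeR under the authors' factors or with 6 libraries, 6 with edgeR under TMM, 7 with TMM, DESeq2 or scaling outside the top window, and 8 with loess. In Ogg1-/-, 3 became 0 without low windows or with 6 libraries, 5 with edgeR under TMM, and 7 with TMM, loess or scaling outside the top window. In DKO, 2 became 0 without low windows, 8 with TMM or scaling outside the top window, and 9 with loess. All H3K4me3 windows of NeuN+ nuclei went from 115, 122 and 185 DERs to 473, 481 and 699 with TMM, so the list moved with its table.

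A replicate block was also fitted with limma, although the numbers did not pair these libraries by correlation. With the block, member DERs stayed at 0, 1 and 1, and the pathway list gave 1, 4 and 4. At Bdnf H3K27me3 the unadjusted p was 0.0197 in Ogg1-/- and 0.0209 in DKO, with adjusted p of 0.555 and 0.927. The Bdnf promoter difference had unadjusted p of 0.0609, 0.0313 and 0.00525. The causes of these moves were not tested. Reads per window, with a median per library of 1 to 8 in the H3K27me3 table of NeuN- nuclei, limit what can be detected there.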
